A study of Mus musculus with 629 samples.

Results

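The 6 Fc receptor genes of this report are Fcgr1, Fcgr2b, Fcgr3, Fcgr4, Fcer1g and Fcgrt, taken by symbol from the 53546 gene symbols of the deposited count table. They were followed in single brain cells from adult mice of the C57BL/6 strain that were wild-type (WT), heterozygous (Het) or knockout (KO) for Notch3. All groups carried the reporter SM22-Cre;Rosa26-stop-tdTomato, in which the promoter of the smooth muscle gene SM22 (Tagln) drives Cre recombinase and so switches on a red fluorescent protein. Which fluorescence the sort selected, and which KO allele was used, is not given in the labels. Cells were sorted by FACS into 384-well plates and sequenced with SMART-seq2, a full-length method whose reads are PCR copies without molecular identifiers. The labels called 400 cells macrophages (211 WT, 70 Het, 119 KO), 215 microglia (79 WT, 58 Het, 78 KO) and 14 cells only 7.

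No label named an animal and every deposited sample was 1 cell, so each genotype of a cell type counted as 1 sample and no test between groups was run. The unit of spread used here is the pool, the cells of 1 cell type and genotype on 1 plate. Each type had 8 pools: WT on plates 059s, 529s and 530s, Het on 056s, 524s and 529s, and KO on 060s and 524s. Pools held 15 to 138 cells and 2470852 to 35356083 counts. Values are CPM, the usual count-per-total unit, taken over all gene counts except those of Rn18s, the 18S ribosomal RNA, which took 16.4 to 56.4% of the gene counts of a pool. Notch3 itself could not check the genotype labels, since it had a count in only 5 of the 615 macrophages and microglia (82 counts, 77 of them in 1 WT macrophage).

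The cell type labels were set beside marker genes. They were probably made from these same counts, so the marker sums describe the labelled groups and are no independent check. The ratios between the types carry the same limit. The 16 macrophage markers, led by the mannose receptor gene Mrc1, summed to 33634 to 43441 CPM in macrophage pools and 11565 to 20699 CPM in microglia pools. The 16 microglia markers, among them Tmem119 and P2ry12, summed to 4575 to 8168 CPM in macrophage pools and 37265 to 73630 CPM in microglia pools. No marker of either list was at 0 in either type. The labelled microglia thus held macrophage marker transcripts well above 0, a point taken up again with Fcgrt and Fcgr2b.

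Fc receptors bind the constant part of antibodies. Fcgr1, Fcgr3 and Fcgr4 encode activating receptors for IgG, which signal through the common gamma chain, the product of Fcer1g. That chain carries an immunoreceptor tyrosine-based activation motif (ITAM), which recruits the kinase SYK after phosphorylation by SRC-family kinases. Fcgr2b encodes the inhibitory IgG receptor, whose cytoplasmic tail carries an inhibition motif (ITIM) that recruits the phosphatase SHIP1, the product of Inpp5d. Fcgrt encodes the heavy chain of the neonatal Fc receptor FcRn, a relative of MHC class I that pairs with beta-2 microglobulin and recycles IgG and albumin from endosomes.

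A pair of short coding stretches show this difference in wiring. They were read from the first-numbered GENCODE M21 transcripts (GRCm38), with positions counted from the first base of the coding sequence, and the codons of the motif are in capitals. The activation motif was found as tyrosine, any 2 residues, leucine or isoleucine, then the same again after 6 to 8 residues, and only Fcer1g held it among the 6 coding sequences.
Fcer1g, bases 178 to 252: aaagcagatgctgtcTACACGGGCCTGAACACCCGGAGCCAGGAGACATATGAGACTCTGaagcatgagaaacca
Fcgr2b, bases 934 to 981: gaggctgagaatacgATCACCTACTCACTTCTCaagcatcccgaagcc
The shorter inhibition pattern (isoleucine, serine, valine or leucine, any residue, tyrosine, any 2 residues, then leucine, isoleucine or valine) matched once in Fcgr2b but also 3 times in Fcgr1 and once each in Fcgr4, Fcer1g and Fcgrt. By itself it marks no signalling site.

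Further sequences bear on how far Fcgr2b and Fcgr3 counts can be told apart. These neighbouring genes on chromosome 1 encode receptors of opposite sign with nearly the same antibody-binding part. Over 782 aligned coding bases they were 87.5% identical, whereas the other 5 pairs of the 4 Fcgr genes were 67.8 to 69.8% identical. Their longest identical run was 129 bases, at Fcgr2b bases 278 to 406 and beginning at Fcgr3 base 263. In the 120 bases just before it, 9 mismatches, in capitals, separate the genes.
Fcgr2b, bases 158 to 277: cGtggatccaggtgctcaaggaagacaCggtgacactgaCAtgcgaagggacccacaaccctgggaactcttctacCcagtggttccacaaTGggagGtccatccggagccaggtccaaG
Fcgr3, bases 143 to 262: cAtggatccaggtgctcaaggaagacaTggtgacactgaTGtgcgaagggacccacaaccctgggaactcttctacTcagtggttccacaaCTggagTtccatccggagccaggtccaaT
Identical run of both: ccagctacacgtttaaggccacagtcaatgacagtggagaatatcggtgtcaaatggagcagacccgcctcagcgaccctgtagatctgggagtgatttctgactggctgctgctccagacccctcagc
Of the 50-base words of the coding sequences, 166 of 971 (17.1%) in Fcgr2b and 166 of 752 (22.1%) in Fcgr3 occurred in the other gene. Over all annotated transcripts, 4.38% of Fcgr2b words and 9.58% of Fcgr3 words occurred in another gene, against 0 for the other 4 genes. How the authors' counting treated reads that fit both genes is not given in the sources used here, so the Fcgr2b and Fcgr3 levels carry that uncertainty. Exons of Fcgr2b also overlap those of Gm38204, which had 34 counts over the 615 cells against 170424 counts of Fcgr2b in macrophages and 66727 in microglia.

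All 6 genes were transcribed in both cell types, and 5 of them were found in nearly every cell. Levels of different genes are compared only per kilobase of exon (union of all annotated exons). In macrophages Fcgrt was highest at 1873 CPM per kb, followed by Fcer1g at 1350.1, Fcgr3 at 934, Fcgr2b at 253, Fcgr1 at 207 and Fcgr4 at 6.9. This order held in all 8 macrophage pools for each neighbouring pair except Fcgr2b over Fcgr1, which held in 6. In microglia Fcer1g led at 1094 CPM per kb, then Fcgrt at 902, Fcgr3 at 826, Fcgr1 at 178, Fcgr2b at 159 and Fcgr4 at 13.1. Here Fcer1g exceeded Fcgrt in 6 of 8 pools, Fcgrt exceeded Fcgr3 in 6, and Fcgr1 exceeded Fcgr2b in 5, so those neighbours were not separated by the spread between pools. With the length of the first-numbered transcript, Fcgr2b (259 CPM per kb) lay above Fcgr1 (178) in microglia. The 5 abundant genes exceeded 96.3 to 99.6% of the measured genes of their cell type per kb.

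**Figure D1:**
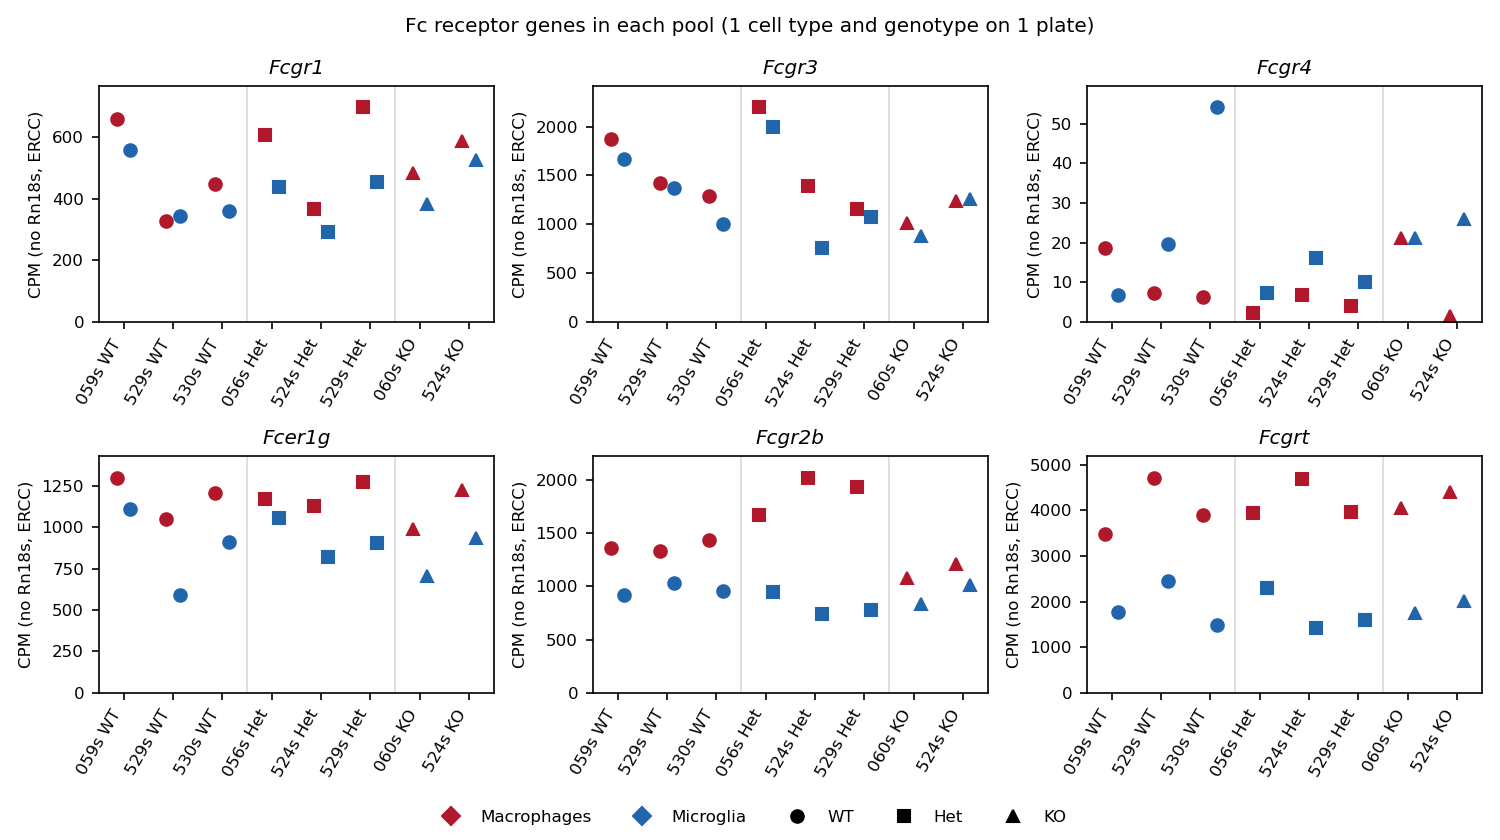
Level of each Fc receptor gene in each pool (y axis, CPM without Rn18s and ERCC, from 0; x axis, plate and genotype; red macrophages, blue microglia; circles WT, squares Het, triangles KO; no error bars, 1 value per pool). Fcgrt is higher in macrophages on every plate, while Fcgr1 and Fcgr3 of the 2 types mostly follow each other from plate to plate. An exception is Fcgr3 in Het cells of 524s (1395 CPM in macrophages, 759.8 in microglia).

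Among the 5 measured Fc receptor genes the largest difference between the cell types was in Fcgrt, the FcRn heavy chain. In macrophages it had 3485, 4714 and 3901 CPM in WT pools (059s, 529s, 530s), 3944, 4695 and 3972 in Het pools (056s, 524s, 529s) and 4058 and 4411 in KO pools (060s, 524s). In microglia the same pools had 1761, 2450.1 and 1488 CPM, 2297, 1409.8 and 1596, and 1740.2 and 2007. No microglia pool reached the lowest macrophage pool. Over all cells the levels were 3937 CPM (95% Poisson interval 3926 to 3949) and 1897 CPM (1887 to 1907), a 2.08-fold ratio. The log2 ratio was 1.05 over all cells and ran from 0.78 to 1.73 over the 8 pools of matching plate and genotype. Fcgrt was the only 1 of the 5 measured Fc receptor genes at least 2-fold higher in macrophages with the same side in all 8 pools, a rule that 1.81% of all 6231 measured genes met. No Fc receptor gene was lower by that rule, which 4.67% of genes met. A gene counted as measured with 20 CPM and a count in 25% of cells of the same type, which Fcgr4 missed.

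Fcgr2b, the inhibitory receptor, had the second largest ratio among the 5 measured genes. In macrophages it had 1366, 1337 and 1436 CPM in the WT pools, 1678, 2022 and 1938 in the Het pools and 1082 and 1215 in the KO pools, in the plate order given for Fcgrt. In microglia it had 923, 1029.9 and 959 CPM in WT, 944, 736 and 777 in Het and 830.2 and 1012 in KO. Again the 8 microglia pools lay below the 8 macrophage pools. The sums were 1466 CPM (1459 to 1473) in macrophages and 918 CPM (911 to 925) in microglia, a 1.60-fold ratio with log2 0.26 to 1.46 over pools. Fcgr2b was thus below the 2-fold limit. At 1.5-fold and the same side in all 8 pools, 2 of the 5 genes, Fcgrt and Fcgr2b, were higher in macrophages, beside 4.03% of measured genes, and none was lower, beside 6.15%.

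Fcer1g, the shared signalling chain, showed a smaller difference in the same direction. Its macrophage pools had 1298, 1050.1 and 1207 CPM in WT, 1169, 1129.6 and 1275 in Het and 991 and 1224 in KO. Its microglia pools had 1113, 591 and 914 CPM in WT, 1055, 818 and 903 in Het and 708 and 933 in KO. Each macrophage pool exceeded the microglia pool of its plate and genotype, although the ranges of the 2 types overlapped. The sums were 1180.0 CPM (1174 to 1186) and 956 CPM (949 to 963), a 1.23-fold ratio. Of the 5 measured Fc receptor genes, 3 (Fcgrt, Fcgr2b and Fcer1g) were higher in macrophages in all 8 pools at any fold, and 5.47% of measured genes were. None was lower in all 8, and 7.01% of measured genes were.

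The activating receptors Fcgr1 and Fcgr3 were at similar levels in the 2 types. Fcgr1, the high-affinity IgG receptor, had 659, 329 and 449 CPM in WT macrophage pools, 605, 366 and 695 in Het and 483 and 586 in KO. In microglia it had 557, 342 and 361 CPM in WT, 436, 292 and 452 in Het and 382 and 526 in KO. The ranges overlapped, and the 1.16-fold ratio of 537 CPM (533 to 541) over 461 CPM (456 to 466) was smaller than the spread within either type, in which the highest pool was 2.11-fold (macrophages) and 1.90-fold (microglia) above the lowest. Fcgr3, the low-affinity activating receptor, was likewise 1622 CPM (1615 to 1629) in macrophages and 1434 CPM (1425 to 1443) in microglia, a 1.13-fold ratio. For each of these 2 genes 7 of 8 pools were higher in macrophages. The median log2 ratio of the 5 measured Fc receptor genes was 0.30, against 0.01 over all measured genes.

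Fcgr4, which encodes another activating receptor known from monocytes and neutrophils, was scarce in both. In macrophage pools it had 18.6, 7.33 and 6.42 CPM in WT, 2.27, 6.88 and 4.09 in Het and 21.1 and 1.52 in KO. In microglia pools it had 6.8, 19.6 and 54.1 CPM in WT, 7.33, 16.3 and 10.1 in Het and 21.2 and 26.0 in KO. The ranges overlapped between types, although the macrophage pool was the higher one in only 1 of the 8 pairs of matching plate and genotype (059s WT). On plate 060s the pair was nearly level. The sums of 8.67 CPM (8.14 to 9.22) and 16.4 CPM (15.5 to 17.4) rested on few cells: 3 cells held 45.4% of the Fcgr4 counts of macrophages and 3 held 25.1% of those of microglia. The Poisson intervals cover the counting of reads only and are narrow beside this spread.

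**Figure D2:**
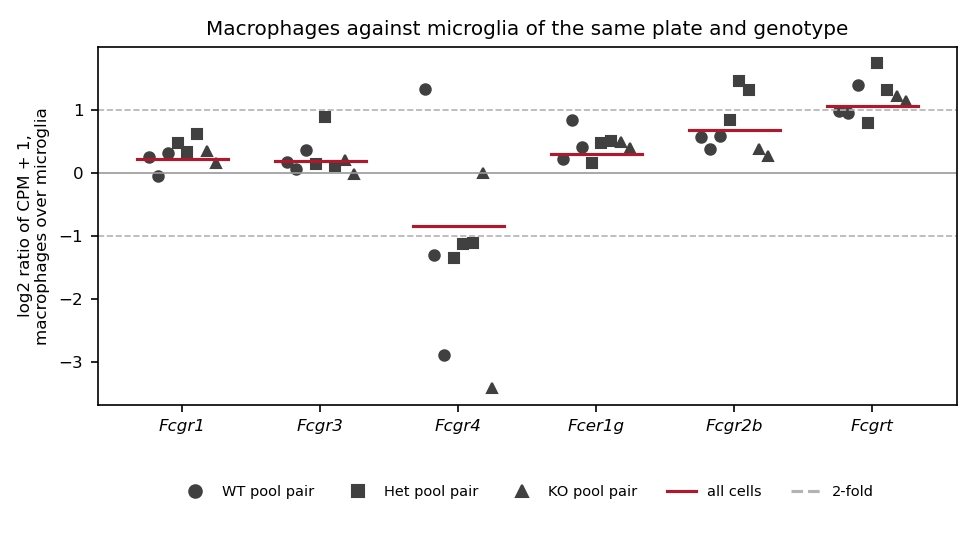
Log2 ratio of CPM + 1 of macrophages over microglia of the same plate and genotype (y axis) for each Fc receptor gene (x axis). Each symbol is 1 of 8 pool pairs, the red line is the ratio over all cells and the dashed lines mark 2-fold. Fcgrt (0.78 to 1.73), Fcgr2b (0.26 to 1.46) and Fcer1g lie above 0 in all 8 pairs; Fcgr4 scatters widely.

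Single cells showed how broadly each gene was detected. Fcgr2b, Fcgr3 and Fcer1g had a count in every one of the 400 macrophages and 215 microglia, and Fcgrt in every macrophage and in 214 microglia. Fcgr1 was found in 375 macrophages (93.8%, exact 95% interval 90.9 to 95.9%) and 210 microglia (97.7%, 94.7 to 99.2%). Fcgr4 was found in 44 macrophages (11.0%, 8.11 to 14.5%) and 49 microglia (22.8%, 17.4 to 29.0%). After thinning each cell to 66287 counts, which left out 62 shallower cells, the share with Fcgr4 was 7.93% of macrophages and 21.5% of microglia, and that with Fcgr1 was 92.1 and 96.5%. The order of the types was therefore the same at equal depth. Over the 5 genes other than Fcgr4, 375 macrophages and 209 microglia had a count of each.

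The per-cell level varied least for Fcgrt in macrophages, with a median of 3625 CPM, a 10th percentile of 1932 and a 90th of 6407. In microglia the corresponding values were 1722, 500.4 and 3388 CPM, so the lower tail was longer. Fcgr2b had a median of 1274 CPM in macrophages (10th to 90th percentile 408 to 2715) and 772 CPM in microglia (263 to 1689). Fcgr1 was the most uneven of the 5 abundant genes, with a median of 406 CPM in macrophages (23.9 to 1003) and 373 CPM in microglia (126 to 802). The coefficient of variation over macrophages was 0.853 for Fcgr1, 0.676 for Fcgr2b, 0.545 for Fcer1g, 0.539 for Fcgr3 and 0.448 for Fcgrt.

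**Figure D3:**
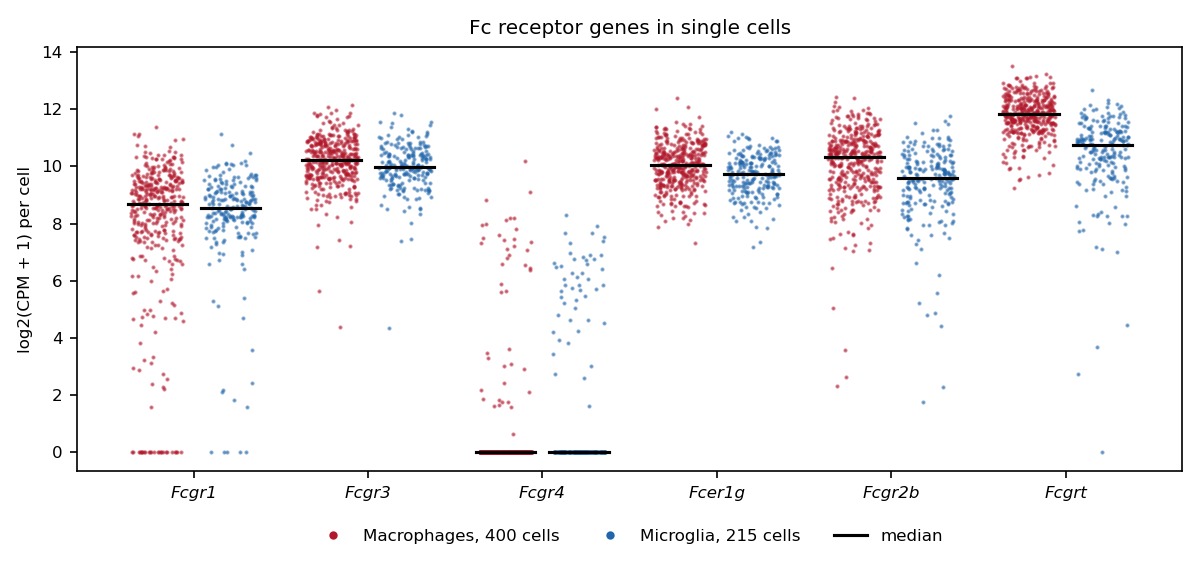
Each point is 1 cell (400 red macrophages, 215 blue microglia); the y axis is log2(CPM + 1), the x axis the gene, and the black bars are medians. Fcgr4 has a median of 0 in both types, Fcgr1 has a tail of cells at 0, and the Fcgrt points of microglia reach lower than those of macrophages.

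Among microglia, the cells with more Fcgrt were also those with more macrophage marker transcripts. Over 215 microglia, with log2(CPM + 1) centred within each pool, Pearson's r with the summed macrophage markers was 0.61 for Fcgrt, 0.47 for Fcgr2b, 0.28 for Fcer1g, 0.25 for Fcgr3, 0.21 for Fcgr1 and -0.14 for Fcgr4. With the summed microglia markers it was -0.18 for Fcgrt and -0.21 for Fcgr2b. The 2 genes highest in macrophages relative to microglia were hence the 2 that followed the macrophage markers most closely across microglia. In the 400 macrophages r with the macrophage markers was 0.31 for Fcgrt and 0.11 for Fcgr2b. All these values share the cells' total counts as their scale, and r of Fcgrt with log2 total count was 0.06 in microglia. Whether macrophage transcripts in microglia wells add to the Fcgrt and Fcgr2b levels measured there was not tested.

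**Figure D4:**
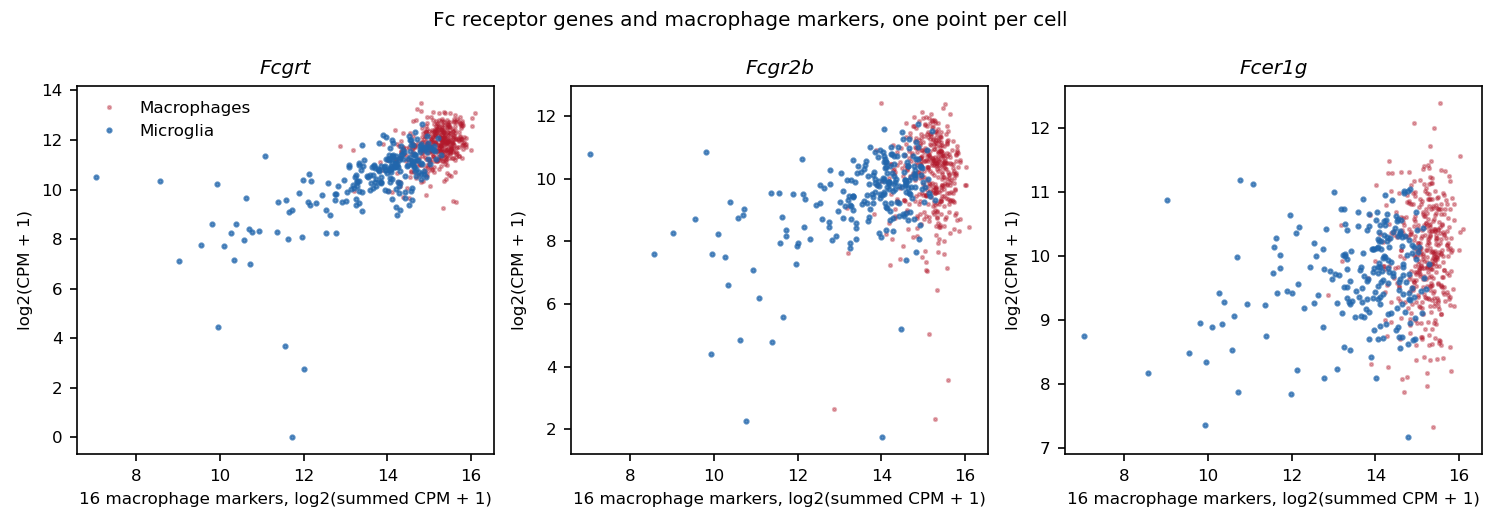
Level of Fcgrt, Fcgr2b and Fcer1g per cell (y axis, log2(CPM + 1)) against the summed level of 16 macrophage markers (x axis, log2(summed CPM + 1)). Each point is 1 cell, red for the 400 macrophages and blue for the 215 microglia. The microglia form a rising band for Fcgrt that meets the macrophages at its upper end (r = 0.61 within pools), a looser one for Fcgr2b (0.47) and a diffuse cloud for Fcer1g (0.28).

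The Fc receptor genes did not vary as a block from cell to cell. In macrophages no pair of the 6 genes exceeded r = 0.11 in either direction. The activating chain and its partners were among these weak pairs: r was 0.11 for Fcer1g with Fcgr1 and 0.09 for Fcer1g with Fcgr3. In microglia the highest pairs were Fcgr3 with Fcgrt (0.44) and Fcgr2b with Fcgrt (0.36), and all others were at or below 0.20. Fcgr3 also had r = 0.25 with log2 total count in microglia.

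The genes most like each member across cells were taken as the 3 with the highest r, among 4812 genes in macrophages and 6632 in microglia. These values were highest for Fcer1g in macrophages and for Fcgrt in microglia. In macrophages the genes nearest to Fcer1g were Tmsb4x (0.54), B2m (0.53) and Tyrobp (0.47). In microglia the same 3 genes came out for Fcer1g, with B2m at 0.56, Tyrobp at 0.50 and Tmsb4x at 0.49. Fcer1g also had r = -0.17 with log2 total count in macrophages and -0.14 in microglia. Tyrobp encodes DAP12, another ITAM-bearing adaptor chain, and B2m the light chain of MHC class I and FcRn. Fcgrt was nearest to Lyve1 (0.31) in macrophages and to F13a1 (0.63), Cbr2 (0.59) and Mrc1 (0.54) in microglia, all 4 on the macrophage marker list. Fcgr2b in microglia was nearest to Mrc1 (0.48), Cbr2 (0.47) and Clec4a1 (0.47). Fcgr1 (Lcp1, 0.40) and Fcgr3 (Itm2b, 0.38) had lower maxima in microglia, and in macrophages no gene exceeded 0.25 with Fcgr1, Fcgr2b, Fcgr3 or Fcgr4.

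The genotype comparison asked whether loss of Notch3 went with another level of these genes. The rule for KO asked for a 1.5-fold difference from WT and from Het in the same direction, with no overlap of KO pools and control pools. None of the 5 Fc receptor genes measured in macrophages was called, where 0.839% of 5484 genes were higher and 1.64% lower. None of the 6 measured in microglia was called, where 1.25% of 6797 genes were higher and 0.971% lower. Here a gene counted as measured with 20 CPM and a count in 25% of cells in at least 1 genotype of the type. In microglia Fcgr4 passed only through KO (23.9 CPM, 26.9% of cells). WT had 17.7 CPM and 19.0% of cells, and Het 9.04 CPM and 22.4%. Het against WT, with a 1.5-fold limit and no overlap, also called none, beside 2.32% of genes higher and 3.9% lower in macrophages and 2.57% and 2.84% in microglia. Genotype and plate cannot be told apart here except on 524s, which held Het and KO cells, and 529s, which held WT and Het cells.

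Fcgr2b in macrophages was the 1 gene whose pools lay in 3 separate ranges by genotype. The WT pools spanned 1337 to 1436 CPM, the Het pools 1678 to 2022 and the KO pools 1082 to 1215 (all values are given above). KO was the lowest of the 3 and Het, not WT, the highest. Summed levels were 1405 CPM in WT, 1717 in Het and 1117 in KO, log2 ratios of -0.33 for KO over WT, -0.62 for KO over Het and 0.29 for Het over WT. At any fold, 3.19% of measured genes had both KO pools below all control pools and 2.66% above them, and 3.83% had every Het pool above every WT pool and 6.27% below. The share of measured genes with all 3 ranges separate is not given here. KO macrophages overlapped the controls in 5 of 7 other scalings or cell choices, for example with edgeR's TMM factors, where KO reached 1339 CPM and WT began at 1219.9. Het overlapped WT in 1 of the 7, with Rn18s kept in the total. Within plate 524s, Fcgr2b was 1215 CPM in KO and 2022 in Het macrophages. Over all cells of a genotype, KO macrophages had a median of 124693 counts per cell, against 225315 in WT and 285909 in Het. By pool the median was 116105 in KO on 060s and 171764 in KO on 524s. It was lower than the latter in Het 529s (109021), Het 524s (142690) and WT 529s (156646), and higher in the other control pools. With every cell thinned to 66287 counts, the KO pools reached 1499 CPM, above the highest WT pool at 1473. Thinning also left out shallower cells and weighted cells equally. With the mean of the cells' own CPM, unthinned, KO reached 1391 CPM and WT began at 1306. The part of depth in this overlap was not tested.

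In microglia Fcgr2b showed no such order, with 942 CPM in WT, 879 in Het and 933 in KO. None of the 6 genes had separate pools by genotype there, beside 2.77% of measured genes with KO pools above and 1.43% below all controls, and 4.05% with Het pools above and 4.09% below WT pools. On plate 524s the microglia had 1012 CPM in KO and 736 in Het, the opposite of the macrophages of that plate. The difference between the cell types in this contrast was not tested.

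Fcgr3 varied between plates in a broadly similar way in both cell types. The Het pool of 524s departed from this, as the lowest microglia pool but not the lowest macrophage pool. In macrophages it had 1875, 1425 and 1291 CPM in the WT pools (059s, 529s, 530s), 2195, 1395 and 1153 in the Het pools (056s, 524s, 529s) and 1014 and 1239 in the KO pools (060s, 524s). In microglia the same pools had 1670.0, 1370.4 and 1002 CPM, 1995, 759.8 and 1075, and 882 and 1260.1. Plates 056s and 059s were highest in both cell types, and each holds only 1 genotype. Summed over genotypes, KO had 1072 CPM against 1490 in WT and 2073 in Het macrophages, and 1094 against 1503 and 1628 in microglia. The log2 ratio of KO over Het microglia was -0.57 over all plates but 0.73 within plate 524s. In macrophages it was -0.95 over all plates and -0.17 within that plate. The Het sums lean on plate 056s: without it the Fcgr3 log2 ratio of Het over WT changed sign in both cell types.

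The inhibitory and activating low-affinity receptors were also set against each other per kilobase. Fcgr2b was 0.218 to 0.504 times Fcgr3 over the macrophage pools and 0.142 to 0.290 times over the microglia pools. By genotype the ratio was 0.283 in WT, 0.248 in Het and 0.312 in KO macrophages, and 0.188, 0.162 and 0.256 in microglia. The pools within a genotype overlapped those of the others, with Het macrophage pools alone covering 0.229 to 0.504. Reads shared by the 2 genes could move this ratio, and their part was not tested. The ratio also depends on the lengths used, which were 5.79 kb for Fcgr2b and 1.736 kb for Fcgr3. With the first-numbered transcripts (3.544 and 1.347 kb) it would be higher in both types.

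Fcer1g, Fcgr1 and Fcgrt were close across genotypes. Fcer1g was 1223 CPM in WT, 1173 in Het and 1051 in KO macrophages, and 1013, 990.3 and 834 in microglia. Fcgr1 was 506, 596 and 509.8 CPM in macrophages and 493, 423 and 463 in microglia. Fcgrt was 3837, 3994 and 4149 CPM in macrophages and 1787, 2024 and 1889.8 in microglia. For each of the 3 genes the KO pools lay inside or across the range of the control pools. Fcgr1 was nonetheless uneven within plates, at 695 CPM in Het against 329 in WT macrophages of plate 529s and at 586 in KO against 366 in Het macrophages of plate 524s. Fcgr4 had a count in 1 to 14 cells of a pool.

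The other genes of the pathway were counted from lists. Between the types they were called by the 2-fold rule, by which 1.81% of all measured genes were higher in macrophages and 4.67% lower. Of 12 other Fc and Fc-like receptors only Fcrls and Fcrl1 were measured; Fcrl5, Fcmr, Fcamr and Pigr had no count in either type. Fcrl1 was lower in macrophages (4.89 CPM) than in microglia (64.7 CPM), 11.2-fold. The IgE receptor genes Fcer1a and Ms4a2, which also use the Fcer1g chain, were at 0.01 and 0.06 CPM in macrophages and 0.17 and 1.07 CPM in microglia. A single microglia well, also the highest in mast cell markers, held 9 of the 12 Fcer1a counts and 72 of the 78 Ms4a2 counts of microglia, which were at 0.04 and 0.08 CPM without it. Of 10 adaptor chains and receptors that pair with them, 4 were measured: Clec4n (Dectin-2, an Fcer1g partner) was higher in macrophages at 399.6 against 156 CPM, Trem2, a partner of DAP12, was lower at 578 against 1340.0 CPM, and Tyrobp (936 and 853 CPM) and Pirb were not called.

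Downstream of the ITAM, 15 of 16 genes were measured and only Lat2, a linker protein, was called, lower in macrophages at 1.24 against 52.2 CPM. Lyn, Lcp2 and Vav1 were also lower in all 8 pools but under 2-fold, and Bcl10 was higher in all 8. The median log2 ratio of the 15 genes was -0.48. Of all measured genes, 7.01% were lower in all 8 pools and 5.47% higher, and by the 2-fold rule 4.67% were lower and 1.81% higher. Syk had 183 CPM in macrophages and 187 in microglia, and the SRC-family kinase Lyn 358 and 658 CPM. Of 11 genes of ITIM signalling 10 were measured and Dok2, an adaptor that restrains RAS signalling, was higher in macrophages at 210.0 against 75.7 CPM. Inpp5d was 501 CPM in macrophages and 987 in microglia, lower in all 8 pools but under 2-fold. None of the 6 measured of 7 FcRn partner and sorting genes was called, and B2m was nearly level at 2109 and 2146 CPM while Fcgrt differed 2.08-fold. By genotype none of these pathway genes was called in KO. Sh3bp2, an adaptor bound by SYK, was the only one called in Het against WT, lower in Het microglia (55.4 against 123 CPM). The same rule called 2.84% of 6797 measured genes lower in Het microglia.

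Fcrls, a scavenger-type Fc receptor-like gene abundant in microglia, stood apart in 1 pair of pools and was chosen for description after its values were seen. Macrophages labelled WT on plate 529s had 1115 CPM and microglia labelled WT on that plate 1694 CPM. In the other 7 macrophage pools it was 4565 to 5816 CPM, and in the other 7 microglia pools 4543 to 6558 CPM. The Het cells of the same plate had 4844 and 5811 CPM, so the low value did not cover the plate. Among the WT cells of that plate the highest macrophage reached 2906 CPM and the highest microglia 3165 CPM, both below the median cell of every other pool. The same WT cells had the lowest Fcgr1 of the macrophage pools (329 CPM) and the lowest Fcer1g of the microglia pools (591 CPM), but also the highest Fcgrt of both types (4714 and 2450.1 CPM) and the highest Fcgr2b of the microglia pools (1029.9 CPM). Their macrophage marker sums were the highest of each type (43441 and 20699 CPM) and their microglia marker sums the lowest (4575 and 37265 CPM). The part of these markers in the Fcrls and Fc receptor levels was not tested. Whether these cells come from 1 animal is not given in the labels.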

How the data were processed

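The authors deposited whole-number counts per gene symbol and cell, with no normalisation. The submitters' processing notes name the aligner STAR without a version. The build, annotation and counting program are not given in the sources used here. The 629 columns each matched 1 label, no pair was identical, no doublet caller was run and no cell was removed. ERCC counts (1.22% of all counts) and Rn18s (40.4% of gene counts) were left out of the totals. Counts per cell then had a median of 213524 (1488 to 2107020). Counts were summed per group or pool, and ratios formed on CPM + 1. Sums carry exact Poisson and shares exact Clopper-Pearson 95% intervals, which cover counting error only. The Poisson intervals treat reads as independent counts, but reads are PCR copies. They therefore do not measure the counting error of transcripts or the spread between pools. No test was run. Exon lengths and sequences came from GENCODE M21, in which 50067 of 53546 symbols were found. Software was Python 3.11.15, pandas 2.3.3, numpy 2.4.6, scipy 1.17.1, matplotlib 3.10.9 and, for alternative scalings, R 4.3.3 with edgeR 4.0.16 and DESeq2 1.42.0. The calling rules were checked on simulated data.

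All 6 members are named. Of the 15 lists (133 genes) called genes are named, otherwise those of highest level or of known role, and for similar patterns the 3 genes of highest r, without predicted genes, pseudogenes, ribosomal protein and mitochondrial genes. The members and lists were chosen with earlier results of these data known. Alternatives changed the scaling, the summary over cells, the pseudocount, the depth, the floor, the fold limit and the plates used. The transcript length as a unit was added after the data were seen.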

Additional observations from a re-analysis of the deposited data

Results flagged for a closer look

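The 14 cells labelled only 7 entered no comparison, yet the Fc receptor genes had counts there. Their summed levels were 649.8 CPM for Fcgr1, 825 CPM for Fcgr2b, 831 CPM for Fcgr3, 6.55 CPM for Fcgr4, 1089 CPM for Fcer1g and 2074 CPM for Fcgrt. Fcer1g and Fcgrt had a count in all 14 cells and Fcgr1 in 8. The sums rest on few cells, since 1 cell gave 35.0% of the Fcer1g counts, 43.2% of the Fcgrt counts and 69.6% of the Fcgr1 counts, and 1 cell gave all 5 Fcgr4 counts.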

How the results depend on the processing

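The 6 ratios of macrophages over microglia kept their sign in all 18 alternatives, with a log2 of 1.02 to 1.17 for Fcgrt, 0.60 to 0.74 for Fcgr2b, 0.27 to 0.41 for Fcer1g, 0.12 to 0.32 for Fcgr1, 0.12 to 0.27 for Fcgr3 and -1.43 to -0.22 for Fcgr4. The alternative floors and fold limit among the 18 do not enter a ratio and could not move it. With a 1.5-fold limit 2 genes, Fcgrt and Fcgr2b, were higher in macrophages in place of 1 (4.03% of measured genes in place of 1.81%). Leaving out plate 530s moved the count of genes apart from 0 to 1 in KO microglia (Fcgr4). Leaving out 059s moved it from 0 to 1 in Het against WT microglia (Fcgr4). With all plates Fcgr4 passed the filter in microglia only through its KO level. Its KO call was therefore partly fixed in advance and is no support for a difference. Without 524s Fcgr3 was apart in KO microglia, but KO then kept only 1 pool, which makes non-overlap easier for any gene. The share of all measured genes apart with a plate left out is not given here. These calls therefore cannot be set against a background. Over the 42 ratios of members, 66 of 780 values moved by more than 1 SD over pools, 75 changed sign, and 17 ratios changed sign nowhere. The 780 values include those of the alternative floors and fold limit, which could not move. The log2 ratio of Fcgr2b in macrophages ran from -0.38 to -0.21 for KO over WT and from -1.05 to -0.50 for KO over Het. With the length of the first-numbered transcript, levels per kb in macrophages were 2224 for Fcgrt, 1751 for Fcer1g, 1204 for Fcgr3 and 414 for Fcgr2b, and in microglia 1419 for Fcer1g and 259 for Fcgr2b, which follows from the shorter lengths. Thinning gave Fcgr4 in 7.93% of macrophages. Of the 12 sets of 3 most similar genes, 10 had all 3 genes in common when only cells of at least 50000 counts and 1000 genes were used. The labels pair macrophage and microglia pools by plate and genotype but give no animal or replicate number, so no replicate block was used.

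The median cell had no Fcgr4 count in either type, at full depth or thinned. No animal is named, so the spread between animals is unknown, and genotype and plate are largely confounded.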

Other observations

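A few single cells had high summed levels of markers of other blood cells. Other such markers were spread over many cells at low levels: Cd79b, a B cell marker, averaged 61.7 CPM in macrophages and 79.9 CPM in microglia. A Het microglia well of plate 524s had 18281 CPM of 5 mast cell markers, led by Cma1 (6731 CPM) and Cpa3 (3911 CPM), where the next microglia had 206 CPM. It also held Ms4a2 (197 CPM) and Fcer1a (24.6 CPM), chains of the IgE receptor, beside Tmem119 (10292 CPM), Fcer1g (829 CPM), Fcgr1 (118 CPM) and Fcgrt (1028 CPM). A WT macrophage of plate 059s had 4205 CPM of B cell markers, with 1894 CPM of Fcgr2b, 1048 CPM of Fcgr3 and 94.7 CPM of Fcgr4. In all, 3 microglia exceeded 1000 CPM of monocyte and neutrophil markers. The highest, a Het cell of plate 524s, had 11094 CPM and no Fcgr4 count. That cell had only 24517 counts, and only 22.8% of all microglia had an Fcgr4 count, so its absence there says little.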
